A study of Homo sapiens with 47 samples.

Results

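The genes described here are GDF11, the secreted factor growth differentiation factor 11, with 3 enzymes that process its precursor (PCSK5, BMP1 and TLL1), 4 secreted proteins that bind and block it (FST, FSTL3, WFIKKN1 and WFIKKN2) and its 2 type II receptors (ACVR2A and ACVR2B). These 10 protein-coding genes were chosen by name from the 58051 genes quantified, and all 10 were found. RNA was sequenced from WA09 (H9), a human embryonic stem cell (hESC) line, in 47 libraries. Undifferentiated hESCs in mTESR1 (t0) were compared with cells kept for 36 h, and then for 10 passages (P1 to P10), in N2B27 medium without vitamin A that held the WNT agonist CHIR-99021, FGF2, the retinoic acid receptor inverse agonist AGN193109 and the ROCK inhibitor Y-27632. The 35 whole cultures came from 3 differentiations (replicates 1, 2 and 3) at 12 time points, with replicates 1 and 2 only at P9. At P5 and P8 each culture was also split with TrypLE into an epithelial fraction (EPI, pre-neural progenitors, PNPs) and a mesenchymal fraction (MES, neural crest, NC), which gave 12 further libraries. Every culture is from 1 cell line, no culture was kept in t0 medium alongside the passages, and the fractions are enriched rather than pure.

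GDF11 is a TGF-β family ligand made as a precursor. Proprotein convertases such as PCSK5 cut the mature ligand from its propeptide, and tolloid metalloproteases such as BMP1 and TLL1 cleave the propeptide that still holds the ligand inactive. The free ligand binds ACVR2A or ACVR2B, which recruit a type I receptor that phosphorylates SMAD2 and SMAD3. In the vertebrate tail bud GDF11 is known for its part in the passage from trunk to tail, when the most posterior HOX genes come on.

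Library totals ran from 13029491 to 64082859 expected counts, with a median of 47292229. Levels are given as TPM, a relative abundance that allows for transcript length, and tests were run on expected counts. Markers fitted the labels at most time points: POU5F1 and NANOG together stood at 1662 to 1854 TPM at t0 and at 0.01 to 0.42 TPM at P8. Libraries P1 replicate 1 and P10 replicate 1 stood apart from the others of their time point. POU5F1, an hESC factor, was at 863 TPM in P1 replicate 1 and at 18.7 and 5.07 TPM in replicates 2 and 3. CDX2, a progenitor factor, was at 193 TPM in P10 replicate 1 and at 2.76 and 1.24 TPM in replicates 2 and 3. In these bulk libraries fewer cells that express a gene and less RNA per cell cannot be told apart. The values of the 10 genes called at P1 and P10 are therefore given also without these 2 libraries, which was not done for the pathway lists. Replicate 1 also differed at 36 h, where SOX2 was at 217 TPM against 21.3 and 4.14 TPM and TBXT at 62.3 TPM against 477 and 493 TPM. At P2 replicate 1 had POU5F1 at 23.7 TPM against 0.39 and 0.51 TPM in replicates 2 and 3. TWIST1, an NC factor, was there at 0.74 TPM against 46.1 and 73.6 TPM. The P2 library of replicate 1 was left out of a fit only together with the rest of replicate 1. At P8 LIN28A of replicate 1 was at 681 TPM against 144 and 70.9 TPM. Without replicate 1 in the fit, FST at 36 h (6.02) and GDF11 (2.88), BMP1 (3.02) and ACVR2B (-1.35) at P8 were still called against t0, as log2 fold changes.

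**Figure D1:**
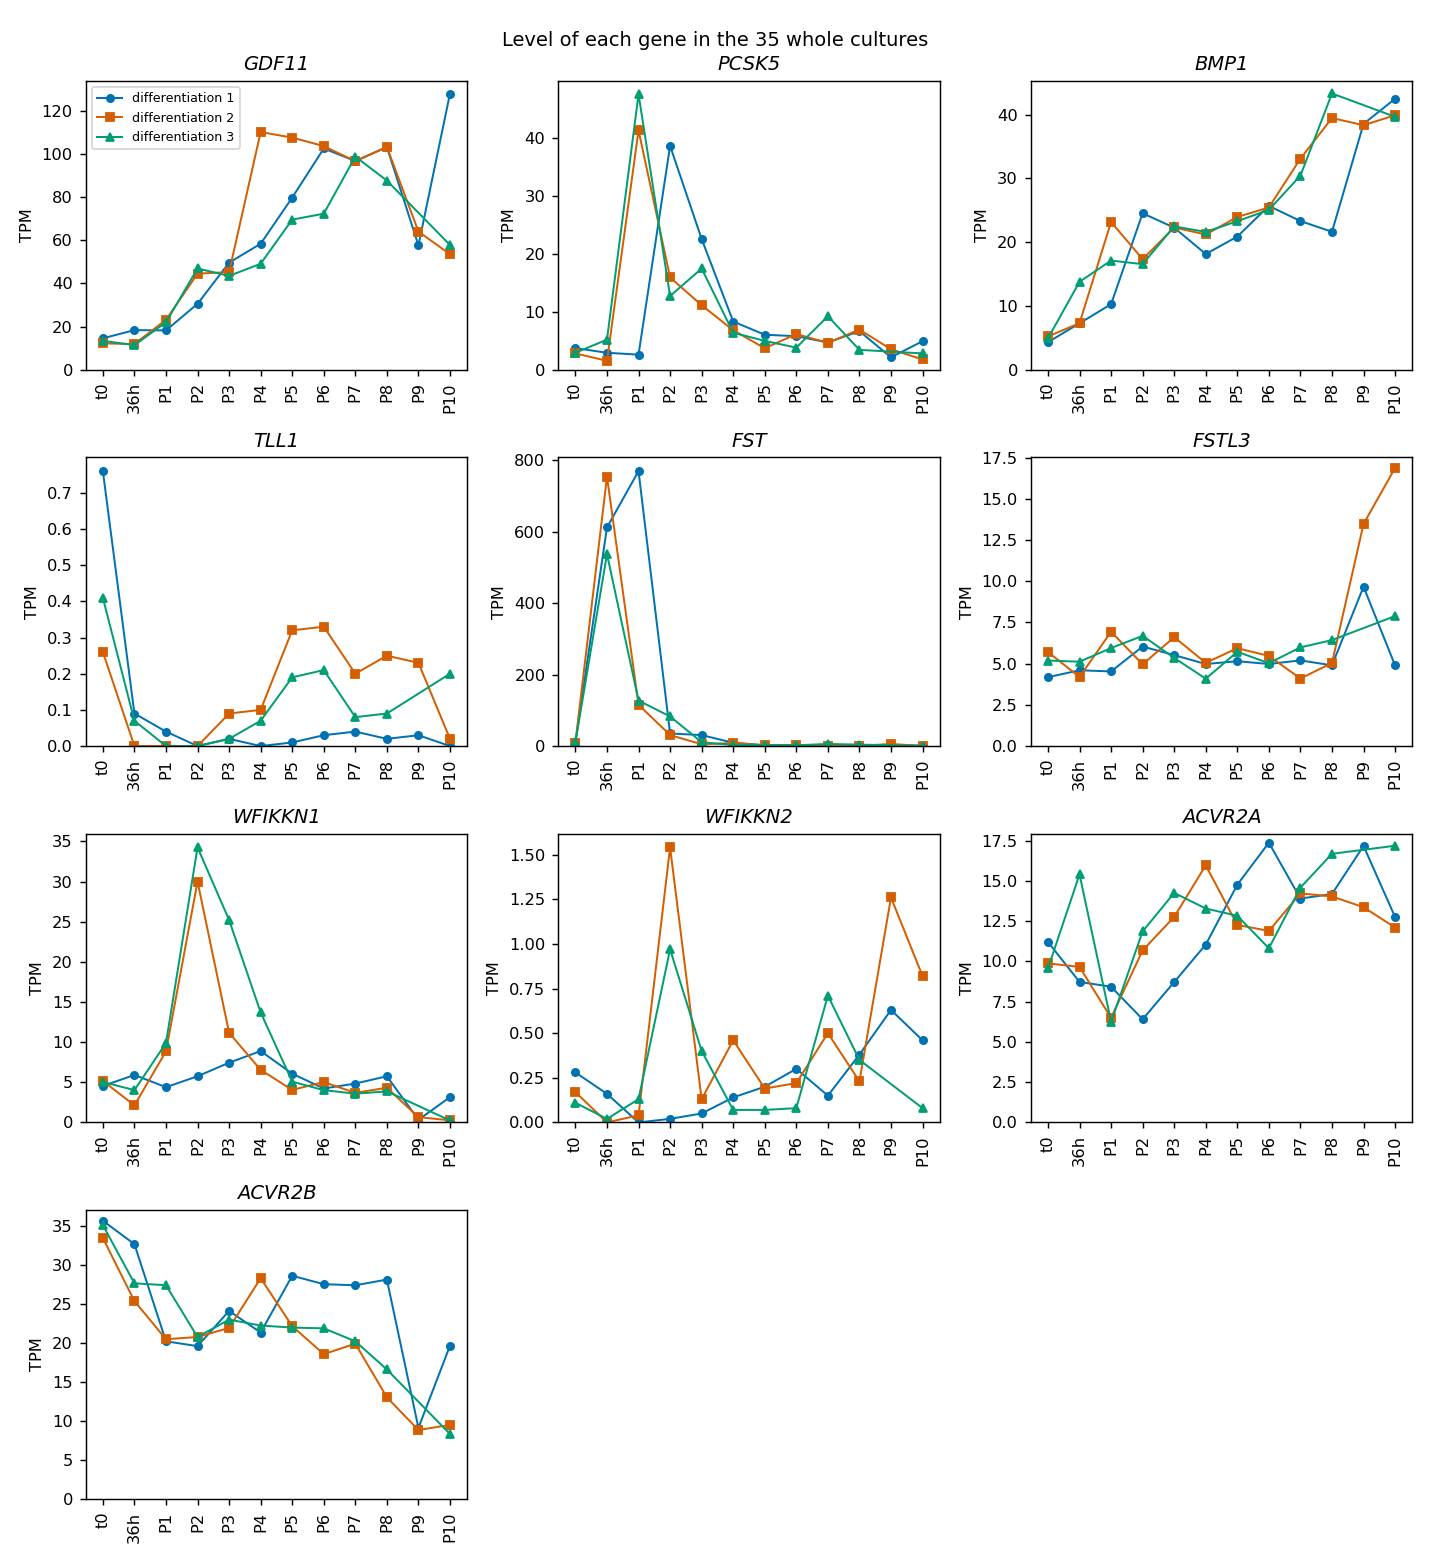
TPM of each of the 10 genes (vertical axes start at 0 and differ between panels) at the 12 time points, with a line for each differentiation (replicates 1 and 2 only at P9). FST and PCSK5 peaked early and transiently, as WFIKKN1 did in replicates 2 and 3, GDF11 and BMP1 reached their high levels late, and ACVR2B was highest at t0 in all 3 differentiations.

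Against t0, changes were called in GDF11, BMP1, PCSK5, FST, FSTL3, WFIKKN1 and ACVR2B. A change was called at an adjusted p under 0.01 with at least a 2-fold difference, in genes whose normalized counts averaged 100 or more. Of the 110 tests (10 genes at 11 time points), 26 were called higher than t0, where the share called higher over all genes tested was 6.37%. Another 5 were called lower, against 7.06% of all tests. GDF11 accounted for 9 of the higher calls and BMP1 for 10, and ACVR2A, WFIKKN2 and TLL1 had none. The median log2 fold change over the 110 tests was 0.07.

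**Figure D2:**
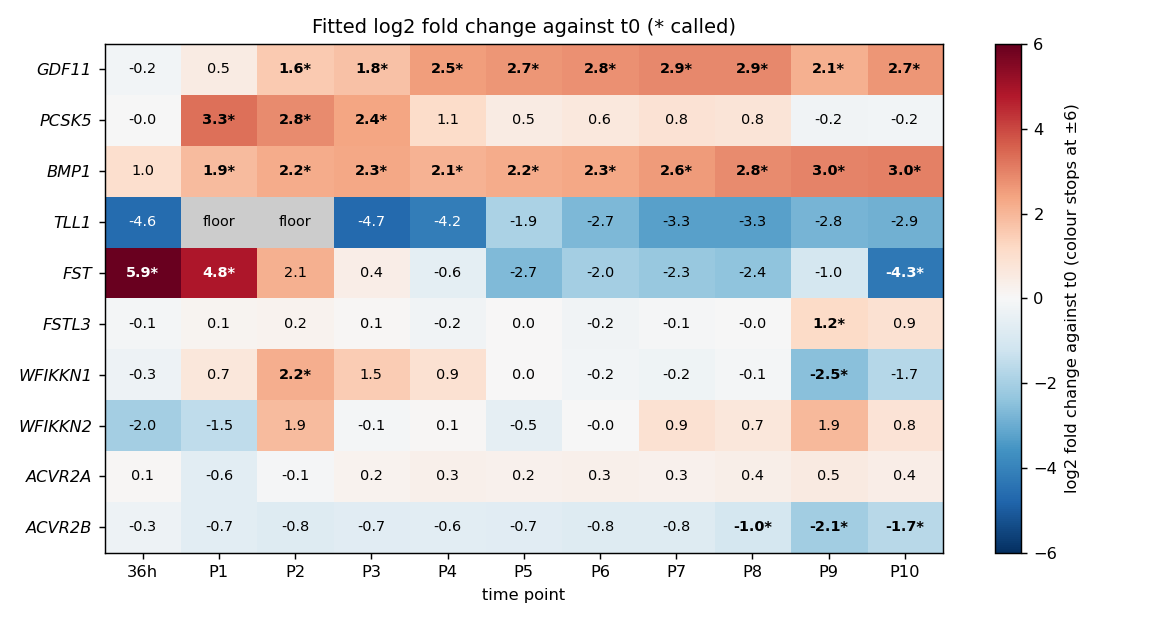
Fitted log2 fold change of each gene (rows) at each time point (columns) against t0, from edgeR; asterisks mark called changes, colors stop at 6, and "floor" marks TLL1 where each library held 3 counts or fewer. GDF11 was called from P2 and BMP1 from P1 onward, FST was called at 36 h, P1 and P10, and ACVR2B from P8.

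GDF11 lies at chr12:55743280-55757278 on the plus strand (GRCh38, GENCODE 29), FST at chr5:53480409-53487134 and PCSK5 at chr9:75890644-76362339, both on the plus strand. Their promoters are shown because these 3 genes carried the ligand rise and the early peaks described next. Each runs from 250 bases before to 50 after the RefSeq gene start (GRCh38.p14), and capitals mark a match on either strand to 1 of the 3 short words searched, the TATA box word, the CCAAT box word and a TCF/LEF word. The windows are chr12:55742872-55743171 for GDF11, chr5:53480379-53480678 for FST and chr9:75890423-75890722 for PCSK5, all on the plus strand.
GDF11: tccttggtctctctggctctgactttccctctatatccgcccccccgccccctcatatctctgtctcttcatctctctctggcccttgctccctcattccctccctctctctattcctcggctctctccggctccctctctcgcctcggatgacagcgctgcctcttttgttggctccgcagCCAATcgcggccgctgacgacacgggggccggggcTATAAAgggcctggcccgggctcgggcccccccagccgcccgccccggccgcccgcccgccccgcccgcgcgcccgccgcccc
FST: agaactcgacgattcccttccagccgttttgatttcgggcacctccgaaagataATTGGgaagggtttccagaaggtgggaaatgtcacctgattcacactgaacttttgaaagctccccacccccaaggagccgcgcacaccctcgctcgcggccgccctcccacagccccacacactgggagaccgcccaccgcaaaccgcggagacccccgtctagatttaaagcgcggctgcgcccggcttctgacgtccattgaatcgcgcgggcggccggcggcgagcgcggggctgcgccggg
PCSK5: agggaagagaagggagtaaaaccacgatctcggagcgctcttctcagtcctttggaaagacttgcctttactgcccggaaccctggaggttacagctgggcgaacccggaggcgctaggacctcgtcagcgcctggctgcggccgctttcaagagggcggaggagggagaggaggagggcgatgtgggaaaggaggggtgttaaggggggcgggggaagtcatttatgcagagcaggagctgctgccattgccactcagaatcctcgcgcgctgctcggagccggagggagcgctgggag

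The GDF11 window held 1 TATAAA, a word found in 11.5% of the 35116 RefSeq promoters, and 1 CCAAT, found in 34.6%. The FST window held 1 CCAAT on the minus strand, and the PCSK5 window held none of these words. Of the 9 genes with an entry, ACVR2B alone held a TCF/LEF word, which 13.8% of all promoters hold. That word was read as CTTTGAA, with A or T allowed at each of its last 2 bases. TATAAA was also found in TLL1 and FSTL3, and CCAAT in TLL1. The GC content was 70.0% for GDF11, 63.7% for FST and 62.3% for PCSK5, beside a median of 58.7% over all promoters.

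GDF11 rose from P2 and stayed above t0 to P10. It was at 14.6, 12.2 and 13.4 TPM in the t0 libraries of replicates 1, 2 and 3, and at 18.4, 11.9 and 11.4 TPM at 36 h. At P1 it was at 18.2, 23.1 and 22.0 TPM, and at P2 at 30.6, 44.6 and 47.0 TPM. Every P2 library lay above every P1 library, and no library of t0, 36 h or P1 reached any later level.

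The rise was not at the same pace in each differentiation. At P4 GDF11 was at 58.4, 110.3 and 49.2 TPM in replicates 1, 2 and 3, so that replicate 2 had reached its peak while the others were not far above their P3 values (49.7 and 43.5 TPM). By P7 the 3 libraries had come together at 96.8, 96.7 and 98.9 TPM, and at P8 they were at 103.3, 103.4 and 87.8 TPM. The fitted log2 fold change against t0 was 1.56 ± 0.27 (SE) at P2 (edgeR quasi-likelihood, adjusted p = 8.2e-05), 2.49 ± 0.28 at P4 and 2.90 ± 0.29 at P8 (adjusted p = 2.8e-08). In normalized counts the mean rose from 1741 ± 118 (SD, n = 3) at t0 to 13305 ± 2001 at P8, a 7.64-fold difference.

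At P9 GDF11 was at 57.7 and 64.1 TPM, below every P7 and P8 library, but the step from P8 to P9 did not pass the test (log2 fold change -0.76 ± 0.31, adjusted p = 0.11). At P10 the libraries divided: 128.1 TPM in replicate 1 and 53.6 and 57.9 TPM in replicates 2 and 3. The P10 difference from t0 was 2.66 ± 0.28 with all libraries and 2.18 ± 0.24 without P1 replicate 1 and P10 replicate 1, and it was called in both fits. Markers of the epithelial state moved with these levels. The summed TPM of CDX2, SOX2, NKX1-2 and CDH1 was 14.9 to 15.7 at P9 and 158 to 689 at P8, and none of the 4 was at 0 at P9. The 8 NC markers (SOX10, SOX9, SNAI1, SNAI2, TFAP2A, TFAP2B, TWIST1 and ETS1) summed to 1188 TPM in each P9 library and to 144 to 795 TPM at P8, with none at 0. Their part in the GDF11 level was not tested.

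Ordered by mean TPM, the GDF11 time points ran P8, P7, P6, P5, P10, P4, P9, P3, P2, P1, 36 h and t0. Neighbors in that order overlapped in their ranges except P9 above P3 and P2 above P1.

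The files also give a length for each gene, averaged over its transcripts by their estimated abundance, and GDF11 has just 2 annotated transcripts, of 8657 and 1258 bases. Both encode protein. The length therefore fixes the share of each transcript that RSEM estimated. The short transcript made up 49.3, 49.8 and 46.7% of GDF11 TPM at t0, 57.1, 57.5 and 55.8% at 36 h, and 43.5, 36.6 and 37.5% at P4. The share was higher at 36 h than at t0 in all 3 differentiations and lower at P4 than at t0 in all 3, and it stayed between 36.6 and 46.3% from P5 to P10. The long transcript rose from a mean of 6.88 TPM at t0 to 58.5 TPM at P8, and the short transcript from 6.50 to 39.7 TPM. These shares come from 75-base single-end reads and carry no error estimate in the files. The gene shares 386 exon bases with SARNP on the minus strand, and whether the counting used strand is not given in the sources used here.

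Across the 16 conditions (12 time points and 4 fractions), the 5 genes whose mean log2 CPM followed GDF11 most closely, among the 13259 genes that averaged 100 or more, were TGFB2 (r = 0.987), CCDC140 (0.986), AC103702.2 (0.983), ASXL3 (0.983) and MYOF (0.978). TGFB2 encodes another TGF-β family ligand. It was at 0.37 to 0.88 TPM at t0 and at 41.3 to 99.0 TPM at P8. Over the 47 single libraries the correlation with TGFB2 was 0.960. These are descriptions over conditions that share differentiations and libraries.

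PCSK5, the convertase, had a sharp early peak. It was at 3.73, 2.82 and 2.93 TPM at t0 and at 2.93, 1.53 and 5.20 TPM at 36 h. At P1 it was at 41.3 and 47.6 TPM in replicates 2 and 3 but at 2.60 TPM in replicate 1. At P2 replicate 1 reached 38.7 TPM, when replicates 2 and 3 were back at 15.9 and 12.7 TPM. The peak was thus seen in each differentiation, 1 passage later in replicate 1, the replicate whose P1 library still had POU5F1 at 863 TPM.

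From P4 to P10 PCSK5 lay between 1.77 and 9.24 TPM. It was called higher than t0 at P1 (log2 fold change 3.32 ± 0.67, adjusted p = 5.9e-04), P2 (2.83 ± 0.66) and P3 (2.37 ± 0.65, adjusted p = 0.0045), and not from P4 on. The P1 call rests on a group with a wide spread (30.5 ± 24.4 TPM, SD, n = 3); without P1 replicate 1 the P1 difference was 3.91 ± 0.48. All 3 PCSK5 calls against t0 failed the threshold when replicate 2 or replicate 3 was left out of the fit, with adjusted p from 0.020 to 0.064.

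BMP1, the tolloid protease that also trims procollagens, rose in 2 stages. It was at 4.32, 5.22 and 4.92 TPM at t0 and at 7.28, 7.30 and 13.8 TPM at 36 h, above every t0 library. The 36 h difference just missed both the p and the fold threshold (log2 fold change 0.998 ± 0.26, adjusted p = 0.014). Without P1 replicate 1 and P10 replicate 1, BMP1 was called at 36 h (1.0 ± 0.24, adjusted p = 0.0064). At P1 it was at 10.3, 23.2 and 17.1 TPM and was called (1.92 ± 0.27, adjusted p = 1.2e-05; 2.16 ± 0.27 without P1 replicate 1). This call was lost without replicate 2 (1.73, adjusted p = 0.011). From P3 to P6 it held at 18.1 to 25.7 TPM in every library. A second climb followed in replicates 2 and 3, to 39.5 and 43.3 TPM at P8, while replicate 1 was still at 21.6 TPM. No step from P6 to P10 was called (log2 fold changes 0.26, 0.26, 0.15 and 0.04). At P9 and P10 all 5 libraries lay between 38.4 and 42.5 TPM. The P10 difference was 3.03 ± 0.28 (adjusted p = 6.9e-09; 2.93 ± 0.27 without P10 replicate 1 and P1 replicate 1), and the mean of normalized counts was 8.08-fold that of t0. Unlike GDF11, FSTL3, WFIKKN1 and ACVR2B, BMP1 in P10 replicate 1 (42.5 TPM) was close to replicates 2 and 3 (39.9 and 39.7 TPM).

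TLL1, the tolloid-like relative of BMP1, was near the limit of detection. Its counts were 66, 31 and 72 at t0, 4, 0 and 3 at 36 h, 1, 0 and 0 at P1, and 0 in all 3 P2 libraries. A count of 0 allows up to 3 counts by counting error alone. No fold is given for P1 and P2, where every library was at or under that floor. TLL1 had 18 whole cultures at or under 3 counts, and its mean over the 47 libraries was 13.2 normalized counts, under the minimum of 100 set for a call. It passed the p and fold thresholds against t0 at P1 to P4 (edgeR adjusted p = 4.8e-04 to 0.0083), below t0, and that minimum alone kept it from being called. The highest level was 1.59 TPM in the P5 MES library of replicate 2.

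FST encodes follistatin, which binds activins, GDF8 and GDF11. It showed the largest fitted rise of the 10 genes, at 36 h. FST was at 10.9, 9.72 and 10.9 TPM at t0 and at 612, 754 and 537 TPM at 36 h, and the groups lay far apart. The log2 fold change was 5.93 ± 0.96 (adjusted p = 2.2e-04), and the mean of normalized counts was 58.6-fold that of t0. At 36 h 1 of the 10 genes was called higher, beside 1.31% of all genes tested, and none lower, beside 1.35%.

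At P1 FST was at 769 TPM in replicate 1 and at 116 and 127 TPM in replicates 2 and 3. The peak of replicate 1 therefore fell at P1 and that of the other two at 36 h, although replicate 1 had reached 612 TPM by 36 h. At P2 FST was at 35.2, 30.8 and 82.8 TPM and at P5 at 2.48, 1.93 and 2.29 TPM, below every t0 library. P1 was called higher than t0 (4.83 ± 0.92 with all libraries, 3.60 ± 0.83 without P1 replicate 1). P10 was called lower, at 1.01, 0.15 and 0.83 TPM (-4.30 ± 0.95, adjusted p = 5.9e-04), on counts of 44, 8 and 46. Without P1 replicate 1 and P10 replicate 1 the P10 difference was -4.44 ± 1.09, and without replicate 2 it was -3.78 and no longer called (adjusted p = 0.011). P5 was not called (-2.65 ± 0.86, adjusted p = 0.014), but was called without P1 replicate 1 and P10 replicate 1 (-2.61 ± 0.80). Leaving out replicate 2 or replicate 3 took the 36 h call past the threshold (adjusted p = 0.016 and 0.011), with the difference itself at 5.70 and 6.04.

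The order of the FST time points by mean TPM was 36 h, P1, P2, P3, t0, P4, P9, P6, P7, P8, P5 and P10. Ranges of neighbors were apart between P1 and P2, P2 and P3, t0 and P4, and P5 and P10. The 5 genes closest to FST over the 16 conditions were CCDC90B (r = 0.977), RSPO3 (0.967), BBS9 (0.963), DCBLD1 (0.961) and NTS (0.947). RSPO3 encodes a secreted enhancer of WNT signaling. Over the single libraries these 5 correlations were 0.726 to 0.881. Across the 16 conditions FST and GDF11 were related with r = -0.859.

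WFIKKN1 encodes a secreted protein with several protease-inhibitor-type domains that binds GDF11 and GDF8. It lies at chr16:629239-634116 on the plus strand. It was at 4.54, 5.17 and 5.04 TPM at t0. At P2 it was at 30.0 and 34.3 TPM in replicates 2 and 3 and at 5.75 TPM in replicate 1, where its highest level before P5 was 8.89 TPM at P4. WFIKKN1 was called higher at P2 (log2 fold change 2.20 ± 0.60, adjusted p = 0.0048), a call that was lost without replicate 2 (adjusted p = 0.10) or replicate 3 (0.092). The early peak was seen in 2 of the 3 differentiations.

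The late levels of WFIKKN1 were the lowest. From P5 to P8 all whole cultures lay between 3.58 and 6.07 TPM, and at P9 it was at 0.33 and 0.66 TPM. WFIKKN1 was called lower than t0 at P9 (-2.52 ± 0.73, adjusted p = 0.0060), a call that was lost without replicate 2 (adjusted p = 0.055) or replicate 3 (0.022). At P10 it was at 3.15, 0.26 and 0.24 TPM and was not called (-1.71 ± 0.60, adjusted p = 0.020). Without P10 replicate 1 and P1 replicate 1, P10 was called lower, at -3.15 ± 0.60.

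The 2 annotated WFIKKN1 transcripts are a spliced coding transcript of 2028 bases and a transcript of 4878 bases that retains introns. The coding transcript made up 96.7, 98.1 and 96.6% of WFIKKN1 TPM at t0 and 93.4, 91.7 and 91.7% at P8. At P9 its share was 61.9 and 37.2%. In P10 replicates 2 and 3 it was listed at 0, and in P10 replicate 1 it was 86.1%. The intron-retaining transcript was at 0.24 to 0.44 TPM in the 3 P10 libraries, beside 0.32 to 0.38 TPM at P8. The coding transcript was at 0.20 and 0.25 TPM at P9, beside 4.39 to 5.07 TPM at t0, so that it was further below t0 than the gene-level TPM. The counts behind these values were small, 21 and 61 at P9 and 27 and 33 in P10 replicates 2 and 3. The gene also shares 34 exon bases with RAB40C on the same strand.

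**Figure D3:**
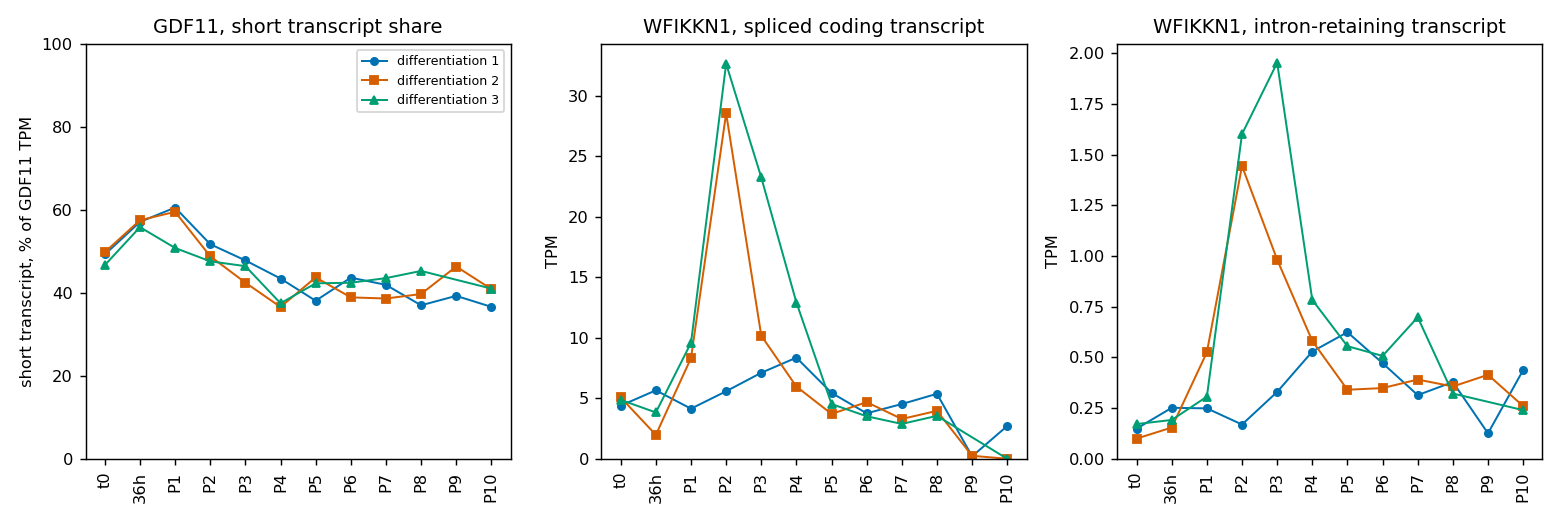
Left, share of GDF11 TPM given to its 1258-base transcript (%); middle and right, TPM of the spliced coding and the intron-retaining transcript of WFIKKN1, at the 12 time points with a line for each differentiation. The GDF11 share was highest at 36 h or P1 in each differentiation, and the coding WFIKKN1 transcript was listed at 0 in P10 replicates 2 and 3.

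WFIKKN2, the close relative of WFIKKN1, reached 1.54 TPM at most (P2 replicate 2, 150 counts). It was at or under 3 counts in 8 libraries, its mean over the 47 was 25.5 normalized counts, and it was not called at any time point. In replicates 2 and 3 its P2 levels (1.54 and 0.97 TPM) coincided with the WFIKKN1 peak, while replicate 1 was at 0.02 TPM. At P9 it was at 0.63 and 1.26 TPM.

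FSTL3, the follistatin-like glycoprotein, barely moved until P8 and was higher at P9. All 30 whole cultures from t0 to P8 lay between 4.09 and 6.94 TPM. At P9 it was at 9.67 and 13.5 TPM, above all of them, and was called (log2 fold change 1.164 ± 0.31, adjusted p = 0.0029). At P10 it was at 4.89, 16.9 and 7.89 TPM, with an adjusted p of 0.0085 but a log2 fold change of 0.91 ± 0.28, short of 2-fold. Without P1 replicate 1 and P10 replicate 1, P10 was called too (1.25 ± 0.25). The P9 call was lost when any replicate was left out (adjusted p = 0.015 to 0.031).

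Set side by side, the antagonist and the ligand crossed over. The summed TPM of FST, FSTL3, WFIKKN1 and WFIKKN2 was 1.36, 1.70 and 1.59 times GDF11 TPM at t0, and 33.9, 63.8 and 47.8 times at 36 h. At P3 it was 0.88, 0.51 and 0.96 times GDF11, the first time point at which all 3 libraries had more GDF11 than antagonist transcript. At P8 it was 0.13, 0.098 and 0.17 times. GDF11 transcripts thus went from 0.022 ± 0.0070 (SD, n = 3) per antagonist transcript at 36 h to 7.93 ± 2.14 at P8.

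The makeup of the antagonist pool changed along with its size. FST was 98.3 to 99.2% of the 4 genes' TPM at 36 h. At P5 FSTL3 made up 37.0 to 49.0%, WFIKKN1 33.4 to 43.7% and FST 15.9 to 17.8%. In P10 replicates 2 and 3 FSTL3 alone was 93.2 and 87.3%. At P9 the antagonists stood at 0.22 and 0.33 times GDF11, above every P8 library, with GDF11 lower and FSTL3 higher than at P8. In P10 the ratio was 0.074, 0.34 and 0.16. These ratios are of transcripts, with no test, and the proteins were not measured.

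**Figure D4:**
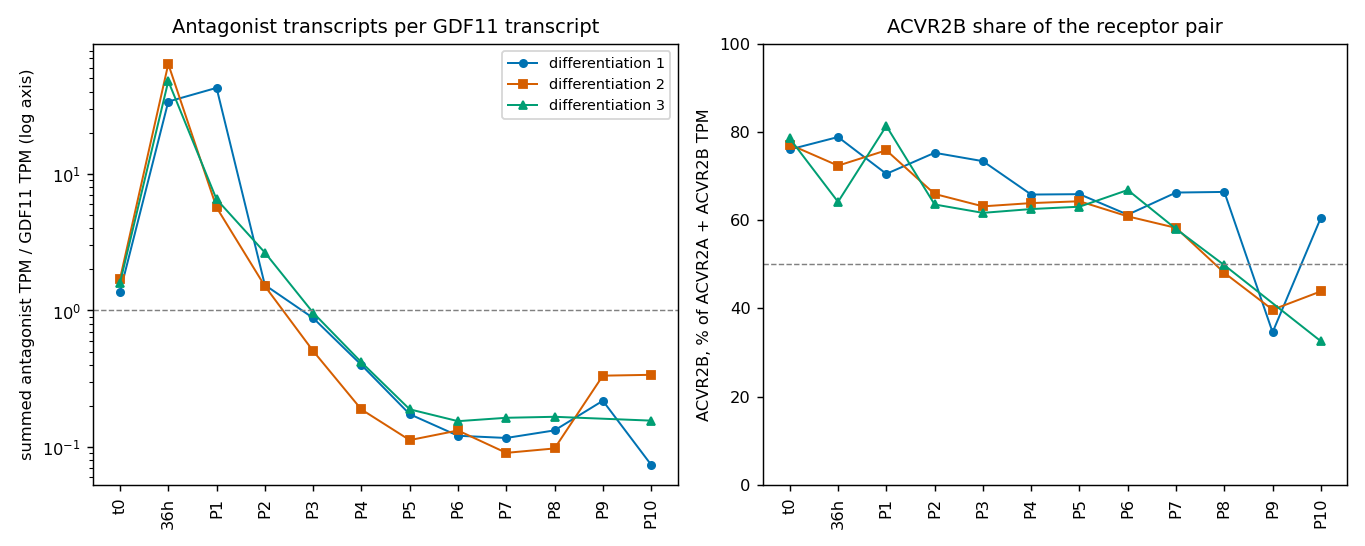
Left, summed TPM of the 4 antagonists divided by GDF11 TPM (log axis, dashed line at 1); right, ACVR2B as a percentage of ACVR2A plus ACVR2B TPM (dashed line at 50%), at the 12 time points with a line for each differentiation. The ratio was 33.9 to 63.8 at 36 h and under 1 in every library from P3, and the ACVR2B share was 34.6 and 39.7% at P9.

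The receptors diverged. ACVR2B was at 35.6, 33.4 and 35.1 TPM at t0, its highest level in each differentiation, and at 19.6 to 20.7 TPM at P2. At P8 it was at 28.1, 13.0 and 16.6 TPM and at P9 at 9.09 and 8.81 TPM. ACVR2B was called lower at P8 (log2 fold change -1.03 ± 0.22, adjusted p = 5.1e-04), P9 (-2.07 ± 0.27, adjusted p = 1.1e-06) and P10 (-1.68 ± 0.23; -2.04 ± 0.20 without P1 replicate 1 and P10 replicate 1). At P10 it was at 19.6, 9.47 and 8.30 TPM. The P8 difference fell just short of 2-fold without the replicate block (-0.996) and was under it without replicate 2 (-0.82, adjusted p = 0.063) or replicate 3 (-0.92, adjusted p = 0.024), where it failed on p as well.

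ACVR2A was not called at any time point. Its libraries lay between 6.25 and 17.4 TPM, lowest at P1 in replicates 2 and 3 (6.50 and 6.25 TPM) and at P2 in replicate 1 (6.41 TPM). Its P8 difference from t0 was 0.36 ± 0.21 (adjusted p = 0.16). ACVR2B thus went from 3.18, 3.38 and 3.66 times ACVR2A TPM at t0 to 0.53 and 0.66 times at P9, and P8 was the first time point with a library under 1 (0.93 and 0.99 in replicates 2 and 3, 1.98 in replicate 1).

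At P8 GDF11 and BMP1 were called higher, beside 7.62% of all genes tested, and ACVR2B lower, beside 7.6%. At P10 GDF11 and BMP1 were called higher, beside 9.45%, and FST and ACVR2B lower, beside 8.67%. Between consecutive time points 2 of 110 steps were called, both higher, beside 0.247% of all genes and steps higher and 0.217% lower. These were FST from t0 to 36 h and PCSK5 from 36 h to P1 (3.32 ± 0.67, adjusted p = 0.0042; 3.90 ± 0.48 without P1 replicate 1 and P10 replicate 1). The PCSK5 step was lost without replicate 2 (adjusted p = 0.30) or replicate 3 (0.095). Among the steps not called, BMP1 from t0 to 36 h had an adjusted p of 0.014 and from 36 h to P1 of 0.030. At the P8 to P9 step ACVR2B (-1.03 ± 0.26, adjusted p = 0.015), FSTL3 (1.17 ± 0.31, adjusted p = 0.020) and WFIKKN1 (-2.41 ± 0.73, adjusted p = 0.037) were not called either. Without P1 replicate 1 and P10 replicate 1, 7 steps were called, among them these 3 genes at P9. Both BMP1 steps were called there too, with adjusted p of 0.0064 and 0.0041. The calls over all genes rose as well in that fit, from 193 higher and 72 lower to 425 and 357 at the P8 to P9 step, and from 107 and 152 to 387 and 549 at the 36 h to P1 step.

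The split cultures asked in which fraction the genes are expressed. GDF11 was higher in EPI than in MES in every one of the 6 pairs. At P5 it was at 86.1, 109.1 and 97.4 TPM in EPI and at 53.1, 69.3 and 45.7 TPM in MES, with no overlap. At P8 it was at 100.9, 108.6 and 92.9 TPM in EPI and at 82.9, 95.5 and 76.8 TPM in MES, where the ranges overlapped. The log2 difference of MES from EPI was -0.78 ± 0.10 at P5 (adjusted p = 0.014) and -0.35 ± 0.10 at P8 (adjusted p = 0.29), neither called. The P5 to P8 change in that difference, 0.43 ± 0.14, was not called either (adjusted p = 0.82).

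No gene was called between fractions by edgeR with the replicate number as a block and genes of low count filtered out: 0% higher and 0% lower at P5, 0% higher and 0% lower at P8, and 0% for the interaction, of 18885 genes. At an unadjusted p under 0.05 there were 4894, 2261 and 1152 genes in these 3 comparisons. The count at P5 depended on the fit: edgeR called 40 genes higher and 42 lower without the count filter, and 11 higher and 2 lower with all 47 libraries. DESeq2 called 361 genes higher and 327 lower at P5, 51 higher and 5 lower at P8 and 1 for the interaction, none of them among the 10. GDF11 at P5 passed the p threshold with DESeq2 (adjusted p = 4.8e-10) and with edgeR without the count filter (0.0070), and missed a call there on fold alone. Over all alternatives its adjusted p ran from 4.8e-10 to 0.18. With a block for each split culture, an alternative chosen after seeing the data, edgeR called 132 genes higher and 177 lower (1.64% together) at P5. It called 0 at P8 and 0 for the interaction, where 4075 and 2316 genes had an unadjusted p under 0.05. In that fit GDF11 had -0.78 ± 0.085 (adjusted p = 0.0054) at P5, which passed the p threshold but was under 2-fold. Fitted on the 6 libraries of P5 alone, also chosen after seeing the data, edgeR called 0 genes higher and 0 lower. GDF11 there had -0.78 ± 0.089 and missed the p threshold (adjusted p = 0.011).

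FST and FSTL3 were higher in MES in all 6 pairs, and neither was called. FST was at 1.03 to 2.29 TPM in P5 EPI and 1.35 to 4.29 TPM in P5 MES, and FSTL3 at 4.54 to 5.08 and 5.32 to 5.93 TPM. The FST log2 difference at P5 was 0.61 ± 0.35. At P8 the differences of FST and FSTL3 were 0.78 ± 0.35 and 0.26 ± 0.14, with adjusted p of 0.43 and 0.49. ACVR2B was lower in MES in all 6 pairs (-0.22 ± 0.14 at P5 and -0.21 ± 0.14 at P8). BMP1 was higher in MES at P5 in 3 of 3 pairs (18.8 to 20.1 against 23.4 to 25.4 TPM) and in 2 of 3 at P8. At an unadjusted p under 0.05, edgeR had 1 of the 10 genes in each of the 3 comparisons, and DESeq2 had 1 at P5, 2 at P8 and 1 for the interaction. Over all genes tested edgeR had 4894, 2261 and 1152 and DESeq2 5033, 2409 and 1169. With the block for each split culture the numbers were 5, 3 and 2 of the 10, where 6816, 4075 and 2316 of all 18885 genes had such a p.

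The markers fitted the split: all 8 NC markers were higher in MES of every P5 pair and 6 of 8 at P8, and 3 of 4 epithelial markers were lower in MES of every pair at both passages. The NC markers summed to 85.0 to 323 TPM in P5 EPI and 535 to 733 TPM in P5 MES. At P8 they summed to 110 to 826 TPM in EPI and 336 to 1188 TPM in MES, so that the fractions differed less at P8, where the GDF11 difference was also smaller. The part of the enrichment in the GDF11 difference was not tested.

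**Figure D5:**
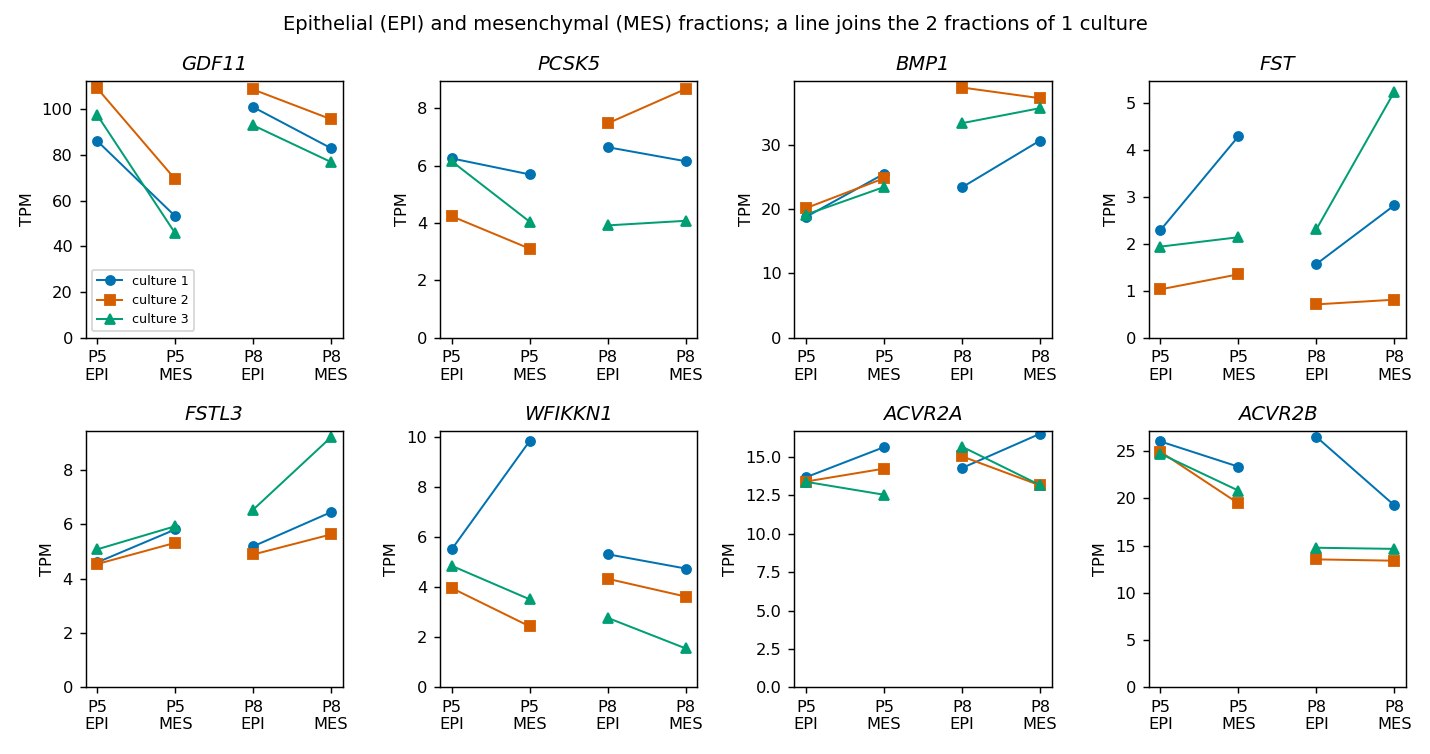
TPM in the EPI and MES fractions at P5 and P8 for the 8 genes that passed 100 mean normalized counts (vertical axes start at 0 and differ between panels); a line joins the fractions of a culture. GDF11 was lower in MES in all 6 pairs, and FST and FSTL3 were higher in MES in all 6.

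The other pathway genes were counted from lists of 26 genes. Of 286 tests against t0, of which 275 could be run, 40 were called higher and 20 lower, beside 6.37% higher and 7.06% lower over all genes tested, with a median log2 fold change of -0.07. Among the related ligands, 9 were called higher and 1 lower of 66 tests run, beside the same all-gene shares of 6.37% and 7.06%. INHBA, a chain of activin A, rose to 2.55, 1.33 and 11.9 TPM at P8 from 0.18 to 0.30 TPM at t0 (4.47, adjusted p = 2.5e-04). NODAL, another SMAD2/3 ligand, was at 15.2, 63.3 and 0.61 TPM at 36 h, with replicate 3 at its t0 level, and was called (4.46, adjusted p = 0.0097). INHBB was called higher at 36 h (6.67, adjusted p = 0.0062). The lower call was GDF3 at P9.

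Among type I receptors and SMADs, 11 of 66 tests were called, all higher, beside 6.37% of all tests. SMAD3, a transducer shared by GDF11 and the activins, made up 10 of them, from 7.62 to 9.06 TPM at t0 to 83.3 to 97.1 TPM at P8 (3.31, adjusted p = 9.4e-10), and TGFBR1 at P10 was the other (1.03). SMAD2, SMAD4 and ACVR1B were not called, and SMAD2 was at a mean of 68.4 TPM at t0 and 80.9 TPM at P8.

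The other convertases, tolloids and enhancers gave 18 higher and 3 lower calls of 66, beside 6.37% higher and 7.06% lower over all genes. PCSK6, a convertase related to PCSK5, was at 1.61 to 2.06 TPM at t0 and 45.0 to 59.6 TPM at P6 (5.00, adjusted p = 4.0e-06). It was called higher from P2 to P10. The P10 libraries were at 74.4, 3.78 and 8.89 TPM, the high value in replicate 1, which stood apart, and those of P9 at 48.1 and 12.6 TPM. At 36 h and P1 every library was already above t0 (3.54 to 5.63 TPM), without passing the test. PCSK6 was at 51.5 to 60.5 TPM in P5 EPI and 13.4 to 26.6 TPM in P5 MES. At P8 it was at 23.6 to 51.0 TPM in EPI and 8.54 to 39.5 TPM in MES, where the ranges overlapped. PCSK6 was not called between fractions at either passage. PCOLCE2, which enhances procollagen cleavage by BMP1, was called from P6 (3.92 at P9, adjusted p = 6.9e-07), and TLL2 was called lower at P7, P8 and P10.

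The SMAD2/3 feedback and response genes gave 2 higher and 16 lower calls of 77, beside shares over all genes of 6.37% and 7.06%, with a pooled median of -1.58. The median was below 0 at each time point from 36 h to P8, reaching -2.55 at P2, and above 0 at P9 (1.162) and P10 (0.86). Cell markers moved too: CDX2 went from 56.5 to 356 TPM at P8 to 7.29 and 7.21 TPM at P9. TWIST1 was at 18.6 to 131 TPM at P8 and at 460 and 528 TPM at P9. The part of this marker shift in the median was not tested. The list was read as transcripts only, and SMAD2/3 activity was not measured in these libraries. SKIL, a repressor of SMAD signaling, accounted for 9 and SMAD7, the inhibitory SMAD, for 6 of the lower calls. SKIL was at 83.4 to 116 TPM at t0 and at 7.54 to 14.7 TPM at P1 (-3.20, adjusted p = 2.4e-06). At P8, when GDF11 was at its highest mean, SKIL was at 26.8 to 39.8 TPM (-1.79) and SMAD7 at 5.42 to 13.4 TPM. All these differences are from t0 cultures in mTESR1, a different medium, and the part of the medium in them was not tested. SMAD7 was above its t0 level of 13.2 to 14.0 TPM at P9 (31.7 and 32.6 TPM) and in P10 replicates 2 and 3 (31.3 and 58.2 TPM, with 12.8 TPM in replicate 1). Neither SMAD7 difference was called (adjusted p = 0.025 and 0.032). BAMBI, a decoy receptor, gave the 2 higher calls, at P9 (5.22, adjusted p = 1.7e-05; 322 and 183 TPM) and P10 (4.04; 15.0, 198 and 414 TPM). The low value again belonged to P10 replicate 1.

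LIN28A and the posterior HOX genes are given beside GDF11. HOXD13 was at 0 to 0.02 TPM at t0, and at 0.38, 24.5 and 0.53 TPM at P4, high in replicate 2, the library in which GDF11 was at 110.3 TPM. At P8 it was at 57.8, 85.9 and 52.2 TPM. HOXD13 was called higher than t0 from P4, HOXA13 from P5 and HOXB13 from P6, and GDF11 from P2. The order of these first calls cannot give the order of onset, because a call also needs the minimum mean of normalized counts. GDF11 was already at 12.2 to 14.6 TPM at t0, whereas HOXD13 started near 0. HOXD13 in P1 replicate 1 (0.98 TPM) was above P4 replicates 1 and 3. Which gene rose first was not tested. LIN28A was at 947 to 1125 TPM at t0. It was at 681, 144 and 70.9 TPM at P8 and at 1.04 and 0.70 TPM at P9 (-8.29 for that step, adjusted p = 0.0039). At P10 it was at 239 TPM in replicate 1 and at 0.89 and 0.38 TPM in replicates 2 and 3.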

How the data were processed

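RNA from 47 libraries of the WA09 line was sequenced after polyA selection as 75-base single-end reads. Per the labels and the submitters' processing notes, reads were trimmed with cutadapt 1.16, aligned with STAR 2.5.2b to GRCh38 and quantified with RSEM 1.3.0; the annotation release and strand setting are not given in the sources used here. The deposited expected counts are RSEM's estimated reads per gene, of which 9.33% of values were not whole and were rounded. The deposited TPM values are scaled by the authors' RSEM run to transcript length and library total. The deposited transcript length per gene is RSEM's abundance-weighted mean, and gave the transcript shares for genes with 2 transcripts in GENCODE 29.

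Counts were tested with edgeR 4.0.16 (quasi-likelihood, TMM, filterByExpr) in R 4.3.3, blocked by replicate number, and p-values were adjusted by Benjamini-Hochberg over every gene tested: 21750 genes in the 35 whole cultures and 18885 in the 12 fractions. The labels number 3 independent differentiations, and libraries that share a number deviated together (mean r = 0.196, against -0.097 for different numbers). Changes were called at an adjusted p under 0.01, at least 2-fold, with a mean normalized count of 100. All 10 genes are named; from each pathway list up to 3 called genes of largest fold change in a comparison are named. The genes and lists were chosen with earlier results of these data known. The fits were also run on simulated counts with a fixed spread. Those counts held no effect of differentiation or of split culture, so they do not bear on the choice of block. Alternatives were DESeq2 1.42.0, its size factors, other filters, no block, all 47 libraries together and libraries left out.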

Additional observations from a re-analysis of the deposited data

How the results depend on the processing

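Against t0, the 31 called results of the 10 genes became 21 to 38 under the alternatives tried, and no result changed sign. The count was 30 without the replicate block, 34 with DESeq2 and 36 without P1 replicate 1 and P10 replicate 1. Calls over all genes moved the same way, for P1 from 737 higher and 1151 lower to 710 and 937, 819 and 1384, and 1020 and 1517. Leaving out replicate 1, 2 or 3 gave 21 to 34. The P1 calls over all genes were then 1051 higher and 1539 lower without replicate 1. They were 238 and 221 without replicate 2, and 332 and 422 without replicate 3. Of the 36 results followed singly, 1 lost its call without the replicate block (ACVR2B at P8), 1 without replicate 1, 11 without replicate 2 and 9 without replicate 3. Most of these were calls on FST, FSTL3, WFIKKN1 and PCSK5, and BMP1 at P1 was another, whereas each GDF11 call against t0 was kept in every alternative run.

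Between consecutive time points the count of 2 became 6 with DESeq2, 5 with all 47 libraries in a single fit, 5 at an adjusted p under 0.05 and 7 without P1 replicate 1 and P10 replicate 1. Calls over all genes rose too, at the P8 to P9 step from 193 higher and 72 lower to 464 and 351 with DESeq2 and 369 and 215 with all 47 libraries. The count for the 10 genes became 1 with at least 10 counts required in every library, where FST was not tested, and 0 to 6 with 1 replicate left out. Over all genes, the P8 to P9 step gave 273 higher and 183 lower calls without replicate 1. It gave 0 of each without replicate 2 or replicate 3. At the 36 h to P1 step these counts were 433 and 507, 0 and 2, and 2 and 10, without replicates 1, 2 and 3 in turn. The count for the 10 genes stayed at 2 without the replicate block. The counts of these 10 genes called between fractions were 0 in every setting; both fits that block by split culture or use the 6 libraries of a passage were chosen after seeing the data. TLL1 and WFIKKN2 were under the minimum mean of 100 normalized counts set for a call, and 3 differentiations of 1 line limit every comparison.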
